A study of Mus musculus with 7 samples.

Results

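The transcripts described here are those of 9 connexin genes in mouse hypothalamus: Gja1, Gja4, Gja5, Gjb1, Gjb2, Gjb6, Gjc1, Gjc3 and Gjd2. They were chosen by name, with the diet differences of these arrays already known, so their diet differences are given as a description and not as independent evidence. Of the 9 genes, 8 have at least 1 probe in the platform annotation, and they hold 14 of the 25697 probes on the array. Gjb6, the astrocyte connexin Cx30, has 0 probes under that name and was not analysed here.

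Every mouse was a male Bgn knockout on the C57BL/6 strain background, killed at 13 weeks of age, so both groups lack an intact gene for biglycan, a matrix proteoglycan. Mice labelled as untreated controls gave 2 arrays (replicates 1 and 3). The other 5 arrays (DHA replicates 1 to 5) came from mice given for about 6 weeks a diet with 0.5% flaxseed oil and 1.2% DHA capsule oil, DHA being docosahexaenoic acid, a long omega-3 fatty acid. Both oils entered together and no group received either alone, so their effects cannot be told apart. The submitters' text reports that 1 further untreated sample was dropped as an outlier. No label names the animal behind an array, so the errors given cover the spread between these samples.

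Connexins are membrane proteins that assemble into hexameric channels, and the channels of neighbouring cells dock to form gap junctions through which ions and small metabolites pass. Astrocytes are coupled chiefly by Cx43 (Gja1) and Cx30 (Gjb6), and connexins of oligodendrocytes include Cx32 (Gjb1) and Cx29 (Gjc3). Fibroblasts of the leptomeninges carry Cx26 (Gjb2) together with Cx43. Outside glia and meninges, Gja4 (Cx37) and Gja5 (Cx40) belong to arterial endothelium and Gjd2 (Cx36) to electrically coupled neurons. Gjc1 (Cx45) is known from smooth muscle, pericytes and some neurons.

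Gjb2 and Gja1 are the connexins on which most of the account below turns, and their promoters are printed for that reason. The sequences are from RefSeq (GRCm38.p6), each covering 250 bases before and 50 bases after the annotated start, 5′ to 3′ on the strand of the gene. Capitals mark the GC box GGGCGG on either strand. The Gjb2 window lies on the minus strand at chr14:57104653-57104952 and the Gja1 window on the plus strand at chr10:56377050-56377349.
Gjb2: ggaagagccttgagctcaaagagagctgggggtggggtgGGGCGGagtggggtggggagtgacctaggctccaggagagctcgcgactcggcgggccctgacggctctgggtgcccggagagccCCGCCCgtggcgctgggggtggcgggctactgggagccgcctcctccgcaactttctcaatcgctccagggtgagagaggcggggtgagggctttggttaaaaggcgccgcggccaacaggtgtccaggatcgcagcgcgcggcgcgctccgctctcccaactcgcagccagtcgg
Gja1: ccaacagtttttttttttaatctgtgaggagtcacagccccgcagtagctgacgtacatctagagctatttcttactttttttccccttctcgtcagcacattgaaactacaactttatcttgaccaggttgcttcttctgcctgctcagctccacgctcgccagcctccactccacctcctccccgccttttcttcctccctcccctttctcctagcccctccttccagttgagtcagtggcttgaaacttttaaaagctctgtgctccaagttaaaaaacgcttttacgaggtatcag
The Gjb2 window was 70.0% G and C and held 2 GC boxes, beginning 211 and 126 bases before the start. The Gja1 window was 47.7% G and C and held none. A GC box occurred in 35.7% of the 32851 promoter windows of that table. The Gja1 window held 1 match to TGANTCA, the binding motif of AP-1, beginning 19 bases before the start, a motif found in 7.81% of windows. Neither window held TATAAA (13.6% of windows) or TGACGTCA (1.79% of windows). All motifs were searched on both strands, and a match describes the letters only. In the order of protein-coding genes on chromosome 14, Gjb2 lies between Gja3 and Gjb6.

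Array signals are given as log2 values after background correction and quantile normalization. A probe counts as detected in an array where its detection p, which compares it with the array's negative controls, is under 0.05. The lowest detected log2 signal was between 5.08 and 5.23, so a probe near 5 has little measurable level. The arrays detected 13873 to 14534 probes, and their median raw signal was 167.4 and 173.2 in the untreated group and 174.5 to 189.5 in the DHA group. Bgn itself was detected in all 7 arrays, with log2 signals of 8.70 and 8.39 in the untreated and 8.02 to 8.30 in the DHA arrays. No source used here says whether its probe lies in the deleted part, so this signal does not check the genotype. The hypothalamic neuropeptides Pomc (8.88 to 9.60) and Hcrt (12.16 to 12.75) were detected in every array. Levels of different probes are not compared, because probes differ in their hybridization.

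Of the 14 connexin probes, 12 passed the filter of detection in at least 2 arrays, and they cover 7 genes. Of these 12, 6 were detected in all 7 arrays. Another 3 passed through DHA arrays alone (both tested Gja5 probes and Gjb1), so a higher DHA value was built into their passing. In the limma fit across 15284 probes, 0 of the 12 had an adjusted p under 0.05, as was the case for 0% of all probes. Their adjusted p ranged from 0.118 to 0.985. At an unadjusted p under 0.05 there were 4 of the 12, against 10.2% of all probes. These were Gjb2 ILMN_2999627 and ILMN_1227148 and both tested Gja5 probes. All 5 DHA arrays lay above both untreated arrays for 3 probes, against 7.89% of all probes, and below both for 0 probes, against 9.06%. The median log2 difference, DHA minus untreated, was 0.22 over the 12 probes and -0.01 over all probes. The 12 include the 3 that passed through DHA arrays alone, and they count Gja5, Gjb2 and Gjd2 more than once. Because the members were also picked with this contrast in view, nothing is read from these shares or from the median.

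**Figure D1:**
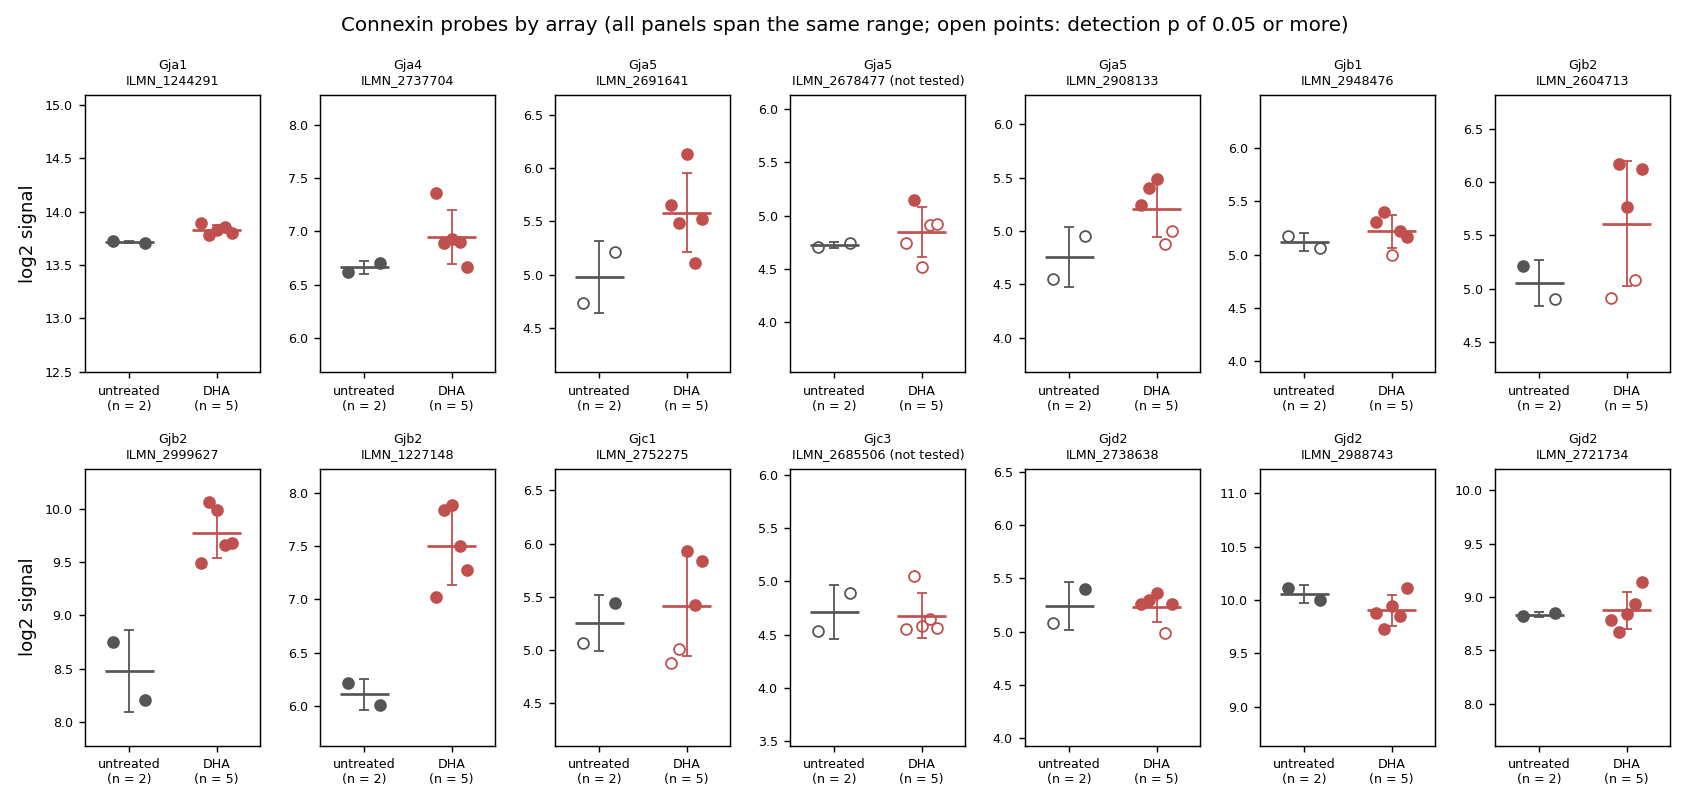
Log2 signal (vertical axis, each panel spanning the same range) of the 14 connexin probes in the untreated (grey, n = 2) and DHA (red, n = 5) arrays, with horizontal lines for group means, bars for 1 SD and open points for arrays in which the probe was not detected. The DHA points of Gjb2 probes ILMN_2999627 and ILMN_1227148 all lie above both untreated points, while the points of Gjd2 and Gjc3 overlap between the groups.

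Gjb2 had the widest separation of the groups among the connexin probes. On its brightest probe (ILMN_2999627) untreated replicates 1 and 3 gave log2 signals of 8.75 and 8.21. DHA replicates 1 to 5 gave 9.49, 10.06, 9.99, 9.66 and 9.68. The lowest DHA array thus stood above the higher untreated array, and the unnormalized signals, 516.3 and 405.6 against 921.5 to 1195.8, were separated in the same way. The difference was 1.295 log2 (SE 0.20, 95% interval 0.83 to 1.76), or 2.45-fold, in n = 2 and n = 5 arrays, with a limma adjusted p of 0.118.

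A second Gjb2 probe (ILMN_1227148), also detected in all 7 arrays, gave 6.21 and 6.01 in the untreated arrays. The DHA replicates 1 to 5 gave 7.02, 7.84, 7.89, 7.498 and 7.27. The groups again did not overlap, and DHA replicate 1 was again the lowest of its group. The difference was 1.39 log2 (SE 0.24, 95% interval 0.84 to 1.94), or 2.62-fold, with a limma adjusted p of 0.141. The third probe (ILMN_2604713) was dim, above its array's negative controls in 1 untreated array and in 3 DHA arrays. Its values were 5.21 and 4.90 in the untreated arrays against 4.91, 6.17, 5.76, 5.08 and 6.13 in the DHA arrays. These overlapped, and its difference of 0.55 (SE 0.36) had a 95% interval of -0.29 to 1.40.

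The call for Gjb2 depended on how the variance and background were handled. With an intensity trend and robust variances both bright probes passed, with a limma adjusted p of 0.0133 each. On the authors' normalized values ILMN_2999627 passed, with a difference of 1.04 (limma adjusted p 0.0305), while ILMN_1227148 differed by 0.65 and did not pass (0.122). Without background correction the same probes differed by 1.04 (0.0331) and 0.65 (0.125). Without untreated replicate 3 the difference of ILMN_2999627 was 1.02, and without untreated replicate 1 it was 1.56.

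Gja1, the main gap junction gene of astrocytes, was detected in all 7 arrays at raw signals of 13329 to 16165. The untreated arrays gave log2 signals of 13.72 and 13.71, and DHA replicates 1 to 5 gave 13.89, 13.78, 13.83, 13.86 and 13.80. The DHA arrays lay above both untreated arrays, but by a margin close to the SD of 0.04 among the DHA arrays. The difference was 0.12 (SE 0.08, 95% interval -0.07 to 0.31), with a limma adjusted p of 0.655. With arrays scaled to a common median in place of quantile normalization it was -0.01, so no direction is given. Its within-group SD of 0.04 log2 was smaller than that of all but 1.12% of the tested probes. The intervals of Gja1 and of the bright Gjb2 probes do not overlap; the difference between the genes was not tested.

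The arterial connexins did not separate the groups. Gja4, the Cx37 of endothelium, gave 6.62 and 6.71 in the untreated arrays. In DHA replicates 1 to 5 it gave 7.36, 6.89, 6.92, 6.91 and 6.66. DHA replicate 1 was the highest and DHA replicate 5 lay between the untreated arrays. The difference was 0.28 (SE 0.17, 95% interval -0.11 to 0.68). It was 0.18 without DHA replicate 1 and 0.14 on the authors' normalized values.

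Gja5, the Cx40 of arteries, was near the detection limit on all 3 of its probes. ILMN_2691641 was detected in neither untreated array and in all 5 DHA arrays, at 4.74 and 5.21 against 5.66, 5.48, 6.13, 5.11 and 5.52. The groups overlapped, since DHA replicate 4 was lower than untreated replicate 3. Taking the detection limit for the untreated arrays, the DHA mean was 1.28-fold higher (measured means 4.97 and 5.58, limma adjusted p 0.479). The probe passed the filter through DHA arrays alone, so a higher DHA value was built in. Its fitted difference of 0.60 (SE 0.26, 95% interval 0.014 to 1.195) was 0.37 without untreated replicate 1. It was 0.16 without background correction and 0.165 on the authors' normalized values. Both are smaller than 1.28-fold, which is therefore not a lower bound. ILMN_2908133 was detected in 0 untreated and 3 DHA arrays, with means of 4.75 and 5.20, and is given no fold because its DHA mean does not clear the limit. Its difference of 0.45 was 0.25 without untreated replicate 1 and 0.13 on the authors' normalized values. ILMN_2678477, detected in 1 DHA array only, did not pass the filter.

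The oligodendrocyte connexins were at or below the detection limit. Gjb1, the Cx32 of myelinating cells and also of liver, gave 5.18 and 5.06 in the untreated arrays, where it was not detected. In DHA replicates 1 to 5 it gave 5.30, 5.40, 4.996, 5.22 and 5.17, with detection in 4 of 5. The groups overlapped and no fold is given. Gjc3 (Cx29) was detected in 0 of 7 arrays, at 4.54 to 5.05, and was not tested. Myelin transcripts were plainly measured in the same arrays, as Mbp gave 14.32 to 14.80 and Mog 9.78 to 10.60.

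Gjc1, the Cx45 of smooth muscle and pericytes, was detected in 1 untreated array and in 3 of the DHA arrays. It gave 5.07 and 5.44 against 4.88, 5.01, 5.93, 5.42 and 5.84, so the DHA arrays lay on both sides of the untreated pair. The difference was 0.16 (SE 0.30, 95% interval -0.54 to 0.86) and turned to -0.03 without untreated replicate 1.

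Gjd2, the Cx36 of electrical synapses between neurons, was covered by 3 probes whose groups overlapped. ILMN_2988743 gave 10.12 and 10 in the untreated arrays and 9.88, 9.72, 9.94, 9.85 and 10.12 in DHA replicates 1 to 5. The difference was -0.16 (SE 0.12, 95% interval -0.43 to 0.12). ILMN_2721734 gave 8.82 and 8.85 against 8.79, 8.67, 8.84, 8.94 and 9.14, a difference of 0.04 (SE 0.13, 95% interval -0.26 to 0.34). The dim ILMN_2738638, detected in 1 untreated array and in 4 of the DHA arrays, differed by -0.01 (SE 0.13). The 3 probes thus differed in sign, and every interval spanned 0.

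**Figure D2:**
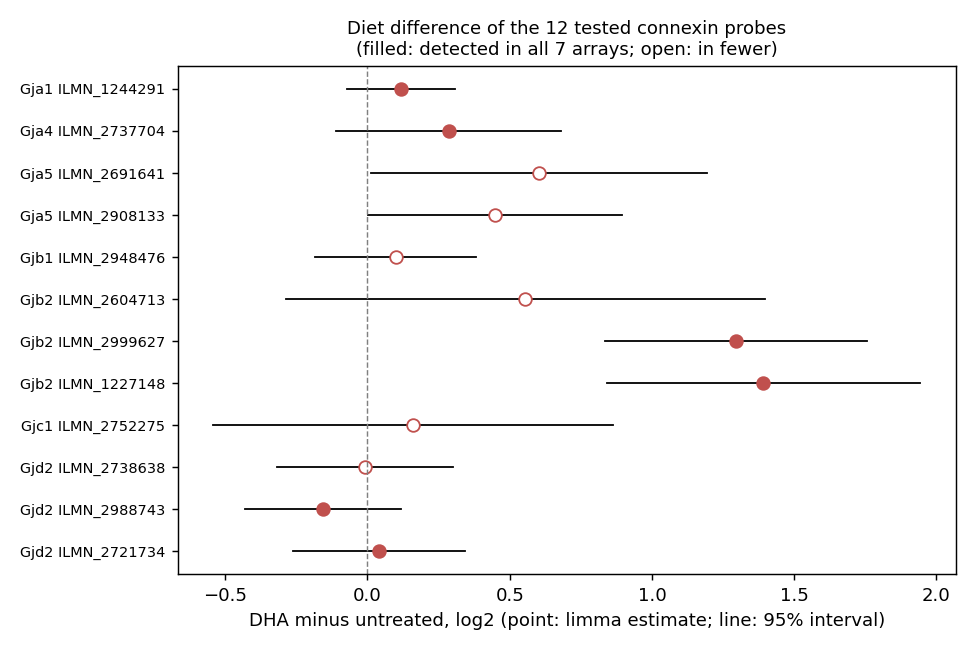
Difference of mean log2 signal, DHA minus untreated (horizontal axis), of the 12 tested connexin probes, with points for the limma estimate and lines for its 95% interval. The bright Gjb2 probes sit at 1.295 and 1.39, and Gja1 and all 3 Gjd2 probes have intervals that include 0.

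Among themselves the connexins differed in their spread within groups. The median within-group SD over all tested probes was 0.17 log2. The bright Gjb2 probes had SDs of 0.28 and 0.34, the dim Gjb2 probe 0.53 and Gjc1 0.44, all above that median. Gjd2 (0.13 to 0.16) and Gjb1 (0.14) were below it, as was Gja1. Of the 4 widest SDs, 3 belonged to probes not detected in every array.

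The other connexin genes gave little signal, and 1 pannexin was well detected. Of 11 further connexin genes 6 have a probe and 2 passed the filter, Gja6 with a difference of 0.07 (SE 0.21) and Gjd3 with 0.08 (SE 0.28). Gja3, the neighbour of Gjb2, was detected in 0 of 7 arrays, as were Gja10, Gjb5 and Gjd4. Of 3 pannexins, channel proteins that do not form gap junctions, Panx1 alone passed the filter, at 9.50 and 9.28 against 9.15 to 9.41, with a difference of -0.11 (SE 0.11). For these 3 tested genes the groups overlapped. Taking the brightest probe of each gene, all DHA arrays lay above both untreated arrays for 8.65% of all genes and below both for 8.79%.

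Of 16 scaffold, traffic and adhesion partners of gap junctions, 13 were tested, 11 with a higher and 2 with a lower mean in the DHA group. None passed the adjusted test (0 of 13), and 3 had an unadjusted p under 0.05, against 9.87% of all genes. The same 3 had all DHA arrays above both untreated arrays. Tjp1, the scaffold ZO-1 that binds the tail of Cx43, gave 6.13 and 6.52 against 6.62 to 7.21 (difference 0.61, SE 0.21). Cav1, the coat protein of caveolae, gave 8.17 and 7.93 against 8.36 to 8.81 (difference 0.51, SE 0.15). Ocln, the tight junction protein occludin, was detected in 1 untreated array and in every DHA array and gave 5.30 and 5.15 against 5.61 to 6.17 (difference 0.60, SE 0.16). The list median was 0.09, against -0.01 over all genes.

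Markers of the cells that carry these connexins were measured in the same arrays. All 14 tested meningeal and fibroblast genes of 16 listed had higher means with DHA, 12 with groups that did not overlap, and their median difference was 1.43. Over all genes, 5038 of 10448 had higher means and the median difference was -0.01. All DHA arrays lay above both untreated arrays for 8.65% of genes and below both for 8.79%. These shares stand beside every marker list below. The lists were chosen with earlier results of these data known, so their counts are a description. Their mean log2 signal was 7.79 and 6.87 in untreated replicates 1 and 3. It was 8.25, 8.93, 9.07, 8.88 and 8.78 in DHA replicates 1 to 5. Ordered from lowest to highest, the 7 arrays stood in the same order for this list as for Gjb2 probe ILMN_1227148. For ILMN_2999627 the 3 lowest arrays were the same. The smooth muscle and pericyte list shared the 5 lowest arrays, in the same order, with ILMN_1227148, and the 3 lowest and 2 highest with ILMN_2999627, so this order was not particular to the meningeal list. The named examples were the transporter Slc47a1, with a difference of 1.40 (SE 0.25) and other probes between -0.10 and 0.64, and the transcription factor Foxc1, with 0.995 (SE 0.15). The part of these cells in the Gjb2 values was not tested. In dissected tissue a change in the number of cells of a type and a change in RNA per cell cannot be told apart.

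Vascular marker lists had smaller median differences than the meningeal list. Of 9 smooth muscle and pericyte genes 8 had higher means, 4 without overlap, with a median of 0.41. Their list mean was 7.29 and 6.73 in the untreated and 7.38 to 7.75 in the DHA arrays. Acta2 differed by 1.34 (SE 0.39), and Tagln, which passed the filter through DHA arrays alone, was at least 1.47-fold higher without overlap. Of 7 tested endothelial genes 6 had higher means, 2 without overlap, with a median of 0.28 and list means of 8.73 and 8.45 against 8.75 to 8.89. Pecam1 differed by 0.28 (SE 0.18), and Cdh5, which passed the filter through 3 DHA arrays alone, had overlapping groups with means of 4.96 and 5.25. These values stand beside those of Gja4 and Gja5, and the part of vessel content in them was not tested.

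Glial and neuronal marker lists had median differences between -0.03 and 0.14. Of 10 astrocyte genes 8 had higher means, 2 without overlap, with a median of 0.14 and list means of 9.51 and 9.56 against 9.55 to 9.73. The water channel Aqp4 differed by -0.13 (SE 0.35) and the glutamate transporter Slc1a3 by 0.03 (SE 0.11). Of 10 oligodendrocyte genes 5 were higher and 5 lower, with a median of -0.03, Mbp differing by 0.18 (SE 0.13) and Mog by -0.08 (SE 0.20). Of 7 tested neuronal genes 2 were higher and 5 lower, with a median of -0.03, Syt1 differing by -0.03 (SE 0.11) and Rbfox3 by -0.20 (SE 0.14). Of 5 microglial genes 2 were higher and 3 lower, with a median of -0.02, Aif1 differing by -0.24 (SE 0.10) and Cx3cr1 by -0.13 (SE 0.23). The 8 tested hypothalamic genes were split 4 and 4, with a median of 0.02. The groups did not overlap for 1 neuronal gene (Stmn2, 0.085), 1 microglial gene (Aif1) and 1 hypothalamic gene (Nr5a1, -0.53), and for 0 oligodendrocyte genes. Stmn2 and Nr5a1 were picked out with their values in view. Nr5a1 (SE 0.15) was near the detection limit, with means of 5.42 and 4.89, and was detected in 2 untreated arrays and 1 DHA array. No gene of any marker list passed the adjusted test.

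**Figure D3:**
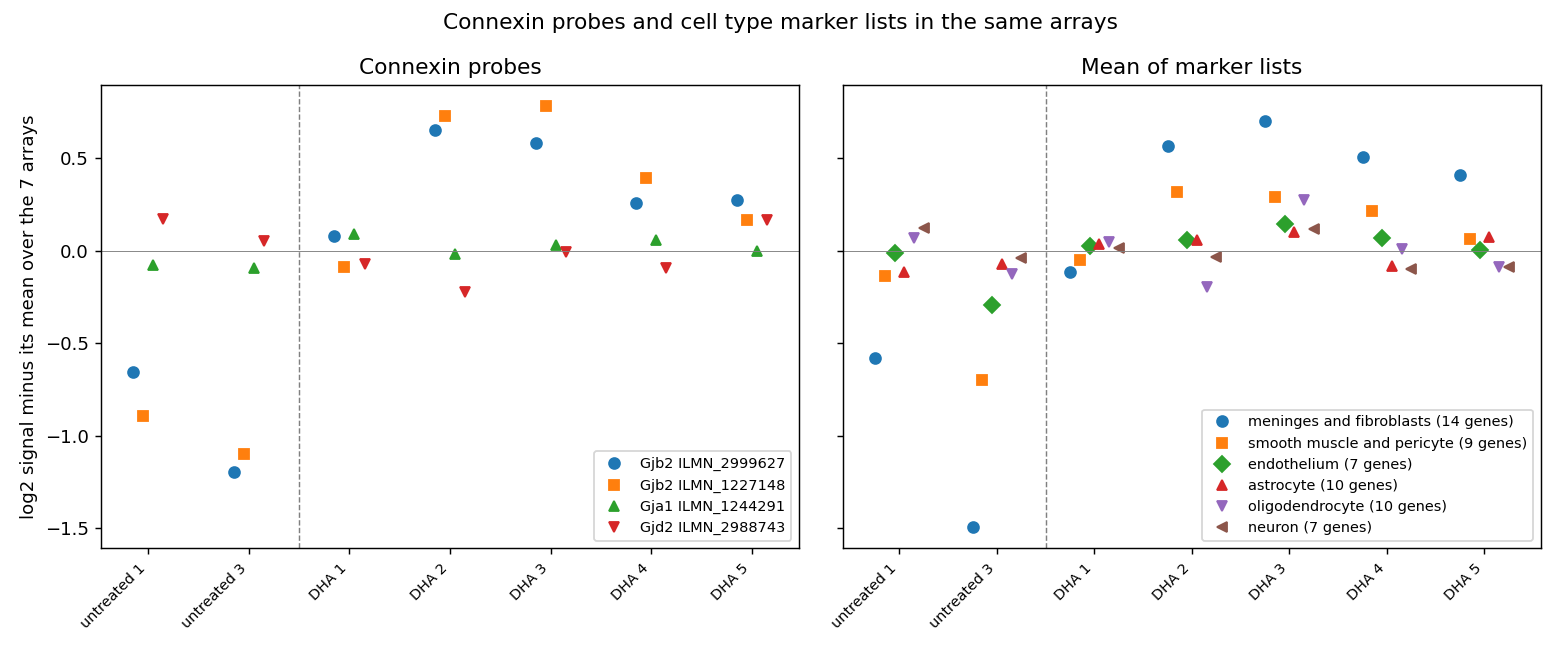
Log2 signal minus its mean over the 7 arrays (vertical axis) for 4 connexin probes (left) and for the means of 6 marker lists (right), with 1 position per array and a dashed line between the untreated and DHA arrays. Untreated replicate 3 is lowest, and DHA replicate 1 lowest of its group, for both Gjb2 probes and for the meningeal and the smooth muscle and pericyte lists, while Gja1 and the astrocyte list stay near 0.

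Transcripts of liver and choroid plexus varied between arrays, and the ranges of their list means overlapped between the groups. Of 5 liver genes 2 were tested, and their list mean was 6.84 and 6.50 in untreated replicates 1 and 3 and 9.27, 7.76, 5.62, 8.26 and 6.59 in DHA replicates 1 to 5. Apoa2 differed by 0.56 (SE 1.11), and Serpina1a, which passed the filter through 3 DHA arrays alone, had overlapping groups (difference 1.10, SE 0.64). Of 5 tested choroid plexus and ependyma genes 3 had higher means, with a median of 0.06, Ttr differing by 1.185 (SE 1.05) and Kl, the 1 gene without overlap, by 0.60 (SE 0.15). DHA replicates 1, 2 and 4 held the 3 highest values of the liver list and also of Gjb1, and DHA replicate 3 held the lowest value of both. Gjb1 spanned only 0.41 log2 over the 7 arrays, near the detection limit, so little can be read from its order. DHA replicate 1, the highest for the liver list, was also the highest for Gja4 and Gja1. The part of such tissue in the connexin values was not tested.

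The genes whose profile over the 7 arrays was nearest to a connexin were found by the root mean square difference of centred log2 values, over 10273 genes. For Gjb2 (ILMN_2999627) they were the peptidase Dpp4 (0.10), the vascular amine oxidase Aoc3 (0.15), the matrix protein fibulin 1, Fbln1 (0.16), the calcium-binding S100a11 (0.16) and the collagen-binding Aebp1 (0.17). Of these, Aebp1 is on the meningeal list, and Dpp4 and Aoc3 were each detected in 1 of 2 untreated arrays. Their diet differences ran from 0.98 for S100a11 to 1.42 for Aoc3. For Gja5 (ILMN_2691641) they were the histone H4c6 (0.12), which has near-identical copies, Vegfd (0.13), the arterial ephrin Efnb2 (0.15), Eva1b (0.17) and Zfhx2 (0.17). For Gjc1 they were Rln3 (0.14), Gng11 (0.15), Nt5c3 (0.16), Slc18a2 (0.17) and Mrgbp (0.17). The Gja5 and Gjc1 profiles rest on dim probes. Vegfd and Rln3 were detected in 0 untreated arrays and in 4 and 3 DHA arrays, so a higher DHA value was built into their passing. This likeness describes these arrays only, and the brightest probes of the other connexins spanned less than 1 log2 over the 7 arrays and were not compared.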

How the data were processed

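Hypothalamic total RNA of 7 samples was hybridised to Illumina bead arrays as biotin-labelled target, per the labels' protocols. For every array the deposited unnormalized table holds the intensity of each probe with its detection p-value, per the file headers. The intensities are linear and, judged by their lowest values, not background-subtracted. It also holds 2 columns that match no sample, and they were not used. A second deposited table holds the authors' normalized intensity on a linear scale. Software named in the submitters' processing notes is R 2.15.0 with lumi 2.10.0. No source used here gives the normalization method, a batch or a slide.

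Values were computed with R 4.3.3 and limma 3.58.1: normexp background from the detection p-values with an offset of 16, quantile normalization and log2. For dim connexin probes this gave differences larger in size than no background correction did (Gja5 ILMN_2691641 0.604 against 0.164, Gjb2 ILMN_2604713 0.555 against 0.155). Probes detected (p under 0.05) by 2 or more arrays were fitted with lmFit and eBayes, as a two-sided test, and p-values of all 15284 were adjusted together (Benjamini-Hochberg). The code was tested on simulated data. Of 25697 probes, 23978 had 1 gene symbol, 1719 had none and 0 had several. Symbols were updated through gene identifiers, found for 23962 probes. For an undetected group, folds taken against the detection limit use the higher of the probe's signal and the lowest detected signal per array. Gene lists use the brightest tested probe of a gene. The members and lists were chosen with earlier results of these data known. Named genes are all members, Bgn, Panx1, Tjp1, partners with an unadjusted p under 0.05 or groups that do not overlap, the first 2 detected genes of each marker list, and the 5 nearest profiles of members spanning over 1 log2; 1 further gene is not reported here. The number of arrays limits precision.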

Additional observations from a re-analysis of the deposited data

Results flagged for a closer look

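An array standing apart from the other 4 of the DHA group was looked for in 27 sets of values (14 connexin probes and 13 gene lists), and 2 were found, against 1.35 that chance alone gives on average. Gjc3 was highest in DHA replicate 2, at 5.05 against 4.65 in the next array, although it was not detected in any array. The dim Gjd2 probe ILMN_2738638 was lowest in DHA replicate 4, at 4.99 against 5.26 in the next array, and was not detected there.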

How the results depend on the processing

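Against 0 probes called in either direction over the whole array, 11 higher and 1 lower passed on the authors' normalized values and also without background correction, 1 higher passed with normexp and an offset of 50, and 46 higher and 6 lower passed with an intensity trend and robust variances. Leaving out 1 array at a time gave 0 to 3 higher and 0 to 0 lower. Of 186 values of connexin probes under the alternatives, 174 kept their direction and side of the threshold, 4 (all of Gjb2, given above) passed it and 8 changed sign. The sign changes were Gja1 with arrays scaled to a common median (-0.008), Gjc1 without untreated replicate 1 (-0.026; 0.351 without untreated replicate 3) and 2 probes of Gjd2. ILMN_2738638 gave 0.001 with array weights, 0.069 with the replicate block and 0.05 without DHA replicate 4, and leaving out 1 array gave -0.17 to 0.152. ILMN_2721734 gave -0.022 with the replicate block and -0.025 to 0.09 with 1 array left out, the former without DHA replicate 5. The causes of these were not tested. The groups share the replicate numbers 1 and 3, whose arrays deviate from their group means with correlations of 0.003 and 0.03. With 2 untreated arrays the deviations mirror each other, so these correlations cannot decide whether shared numbers mark a pairing. The numbers are used here only as names. With the replicate block the bright Gjb2 probes differed by 1.26 and 1.34 (limma adjusted p 0.623 each), and as without the block no connexin probe passed the threshold. The block fit takes its difference from replicates 1 and 3 alone, because DHA replicates 2, 4 and 5 have no untreated partner. It is therefore no check on all 7 arrays. Requiring a detection p under 0.01 in all 7 arrays left no value for 6 dim connexin probes. Signal over background limits Gja5, Gjb1, Gjc1, Gjc3 and 1 probe each of Gjb2 and Gjd2. The size of the difference also depended on the background step for Gjb2 ILMN_1227148 (1.392, and 0.652 without it) and Gja4 (0.285 and 0.136).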
